A study of Mus musculus with 8 samples.

Results

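The genes described here handle iron in the liver or set the level of hepcidin, the hormone that governs how much iron enters the blood. They are 10 of the 49671 gene identifiers in the deposited count table, chosen by symbol: the hepcidin genes Hamp and Hamp2, the transferrin gene Trf, its receptor gene Tfrc, the ferritin genes Fth1 and Ftl1, the ferroportin gene Slc40a1, the ligand gene Bmp6, and the BMP-SMAD target genes Id1 and Smad7. All 10 are protein coding and all 10 were among the 13117 genes with enough reads to be tested. RNA-seq was made from whole livers of C57BL/6 mice taken after weaning, as 8 libraries in 4 groups of 2. The groups were WT males, NT-KO males, WT females and NT-KO females. NT-KO animals are homozygous for a CRISPR/Cas9 deletion in Lbr, the gene of the lamin B receptor, an inner nuclear membrane protein that also has sterol reductase activity. The deletion removes the canonical start codon and part of intron 1, and the sterol reductase domain is left in place. The line goes back to a single founder male that was backcrossed to C57BL/6N, and heterozygous offspring were intercrossed. No source used here says whether the libraries of a group came from separate animals, so the p-values below measure only the spread between these libraries. The libraries held 45020377 to 64396291 counts each.

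Hepcidin is a peptide hormone made mainly by hepatocytes. It binds ferroportin, the iron exporter of the cell surface, and leads to its degradation, so that less iron leaves the cells that store or recycle it. Sinusoidal endothelial cells of the liver make the ligands BMP6 and BMP2, which act on hepatocyte receptors and SMAD proteins to raise Hamp, Id1 and Smad7, and interleukin 6 raises Hamp through STAT3. Inside the cell, iron regulatory proteins bind RNA hairpins called iron responsive elements when iron is low. Binding in a 5′ UTR blocks translation, as for the ferritins and ferroportin, and binding in the 3′ UTR of Tfrc protects that mRNA from decay. Mice carry a duplicate of the hepcidin gene, Hamp2, beside Hamp.

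Iron responsive elements are shown first, because they are the feature that sets the ferritin, ferroportin and transferrin receptor mRNAs apart and because their control acts on translation in some members, which read counts do not measure. The search was for a C, 5 bases, the loop CAGTGN with a last base other than G, and 5 bases able to pair with those before the loop, G-U pairs allowed. All sequences are on the GRCm38 build, read 5′ to 3′ in the sense of the transcript, and the 6 loop bases are in capitals. Of 21901 protein-coding genes, 0.105% held a match in an annotated 5′ UTR and 0.457% in a 3′ UTR. The 5′ UTR matches among the members were at chr19:9982733-9982759 for Fth1, chr7:45459780-45459806 for Ftl1 and chr1:45925466-45925492 for Slc40a1. Tfrc had 4 matches in its 3′ UTR, which start at bases 32631220, 32631599, 32631664 and 32631711 of chromosome 16. Among the other iron genes described below, the only matches were 1 in the 5′ UTR of Alas2 and 1 in the 3′ UTR of Bola3. Elements that depart from this pattern would be missed.
Fth1: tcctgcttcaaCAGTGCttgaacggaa
Ftl1: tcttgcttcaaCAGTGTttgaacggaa
Slc40a1: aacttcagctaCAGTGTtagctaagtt
Tfrc a: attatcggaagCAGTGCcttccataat
Tfrc b: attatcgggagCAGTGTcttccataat
Tfrc c: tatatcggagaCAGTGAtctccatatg
Tfrc d: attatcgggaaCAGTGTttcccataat

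The upstream sequences of Hamp and Hamp2 are shown because the 2 genes are near copies and Hamp2 RNA differed widely between the sexes. They are the 250 bases before each annotated start in RefSeq (GRCm38.p6, minus strand, chr7:30944030-30944279 for Hamp and chr7:30924182-30924431 for Hamp2). The Ensembl model of Hamp2 (chr7:30922372-30924681) starts further upstream, so the stretch shown for Hamp2 lies inside it. Capitals mark 2 palindromic motifs that read the same on both strands, the BMP response element core GGCGCC and the STAT motif TTCNNNGAA.
Hamp: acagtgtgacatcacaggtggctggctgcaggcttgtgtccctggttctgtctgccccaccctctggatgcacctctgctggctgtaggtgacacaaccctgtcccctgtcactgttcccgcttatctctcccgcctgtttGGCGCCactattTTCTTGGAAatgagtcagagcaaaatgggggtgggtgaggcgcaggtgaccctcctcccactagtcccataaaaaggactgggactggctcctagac
Hamp2: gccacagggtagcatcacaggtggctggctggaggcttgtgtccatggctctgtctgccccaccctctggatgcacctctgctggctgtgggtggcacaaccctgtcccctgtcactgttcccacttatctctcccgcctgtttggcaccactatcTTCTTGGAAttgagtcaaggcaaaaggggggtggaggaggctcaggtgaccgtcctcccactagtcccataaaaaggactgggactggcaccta

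The upstream stretches were 89.7% identical over an alignment of 253 positions. The STAT motif lay at bases -97 to -89 from the start of Hamp and -94 to -86 from that of Hamp2. The element GGCGCC lay at bases -109 to -104 of Hamp, and the aligned bases of Hamp2 carry the substitution G4A, with positions counted from 1 at the element's 5′ end and the Hamp base first. Of 32851 RefSeq promoters of the same length, 9.59% held GGCGCC and 7.02% held TTCNNNGAA. A match here is a description of the letters, and its absence says nothing of which factors bind.

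On GRCm38 the members lie on 8 chromosomes. Hamp (ENSMUSG00000050440, chr7:30942368-30944032, minus strand) and Hamp2 (ENSMUSG00000056978, chr7:30922372-30924681, minus strand) are 17686 bases apart, and Ftl1 (ENSMUSG00000050708, chr7:45457944-45459884, minus strand) is on the same chromosome. Trf (ENSMUSG00000032554) is at chr9:103204001-103230444, Tfrc (ENSMUSG00000022797) at chr16:32608920-32632794 and Fth1 (ENSMUSG00000024661) at chr19:9980598-9985098. Slc40a1 (ENSMUSG00000025993) is at chr1:45908068-45926523, Bmp6 (ENSMUSG00000039004) at chr13:38345107-38500302, Id1 (ENSMUSG00000042745) at chr2:152736251-152737410 and Smad7 (ENSMUSG00000025880) at chr18:75367529-75395935. Some of these genes could have exchanged reads with a near copy. Of all 50-base stretches of its transcripts, Hamp shared 16.6% with Hamp2, Ftl1 shared 58.4% with 17 other genes, mostly ferritin pseudogenes such as Ftl1-ps1, and Trf shared 58.5% with Gm20425, an annotated gene that overlaps it on the same strand. Hamp and Hamp2 are both overlapped by the lincRNA Gm44662 on the opposite strand, and the sources used here do not state whether the counting used strand. Bmp6 is likewise overlapped on the opposite strand by the protein-coding gene Txndc5 and the antisense RNA 4930579J19Rik. It shared 4.55% of its stretches with Txndc5. The levels of Trf, Ftl1, Hamp, Hamp2 and Bmp6 are uncertain to that extent.

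The labels were checked first. Lbr stood at 7.99 and 6.54 CPM (counts relative to the library total, scaled by the TMM factors of edgeR) in the WT males, 12.8 and 13.6 in the NT-KO males, 7.43 and 6.96 in the WT females and 13.1 and 14.0 in the NT-KO females, with library 1 of each group given first as in all such lists here. NT-KO livers thus had more Lbr reads than WT livers in both sexes with no overlap, by a log2 fold change of 0.86 (SE 0.168) in males and 0.91 (SE 0.167) in females, and neither passed the test (edgeR quasi-likelihood, FDR 0.167 and FDR 1). Below, edgeR with no test named means this quasi-likelihood test. Counts over the whole gene cannot show the deletion. Xist, the RNA of the inactive X chromosome, was at 788 to 967 CPM in the female libraries and at 0.723 to 3.21 CPM in the male ones, so each library matched its labelled sex. Albumin, the defining secretory product of hepatocytes, took 4.88% to 8.15% of the counts of each library.

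A library of the male WT group stood apart from the others before any comparison. The 26 genes of the inflammatory arm of hepcidin control and the acute phase response summed to 14855 and 25491 CPM in male WT libraries 1 and 2, and to between 9683 and 12878 CPM in the other 6 libraries. Haptoglobin (Hp), the most abundant of them by its mean over the 8 libraries, was at 6746 CPM in male WT 2 and at 912 to 3331 CPM elsewhere. The amyloid gene Saa1, chosen after its values were seen, was at 1834 CPM in male WT 2, at 260 CPM in male NT-KO 2 and at 30.6 to 162 CPM in the other 6. Among the members, male NT-KO 1 was the highest of the 8 libraries at 6 of 10 genes and male WT 2 the lowest at 5 of 10. Several of the changes below move when either of these 2 libraries is left out, and the values without it are then given.

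Per length, Hamp was the most abundant member in every group. The order below rests on the union exon lengths, such as 410 bases for Hamp, 1340 for Ftl1, 3320 for Trf and 3469 for Fth1. By mean CPM, without regard to length, Hamp came first only in male NT-KO, and Trf came first in the other groups. Reads per kilobase of union exon, scaled to depth like CPM (RPKM), averaged 2125 for Hamp in the WT males, 4392 in the NT-KO males, 4409 in the WT females and 3716 in the NT-KO females. The ferritin light chain gene Ftl1 (852 to 1218 RPKM over the group means), Trf (423 to 583) and Fth1 (292 to 371) came next in that order in all 4 groups, apart from Hamp2, which was at 1019.7 RPKM in the WT females, 796 in the NT-KO females, and only 17.6 and 12.5 RPKM in males of these genotypes. Slc40a1 lay between 11.99 and 16.97 RPKM, Id1 between 3.01 and 17.2, Tfrc between 4.15 and 6.62, Smad7 between 1.48 and 2.96, and Bmp6, the ligand, between 0.370 and 0.952. Neighbours in this order overlapped in places. In male NT-KO these were Trf and Fth1 (467 ± 172 and 336 ± 83.7 RPKM, SD, n = 2) and Tfrc and Smad7 (5.29 ± 2.98 and 2.96 ± 1.46 RPKM), and Id1 (17.2 ± 15.1 RPKM) overlapped Slc40a1, Hamp2 and Tfrc. In female WT Hamp2 (1019.7 ± 599 RPKM) overlapped both Ftl1 (1218 ± 211 RPKM) and Trf (583 ± 188 RPKM). Slc40a1 and Id1 overlapped in female WT and female NT-KO as well, and no neighbours overlapped in male WT.

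**Figure D1:**
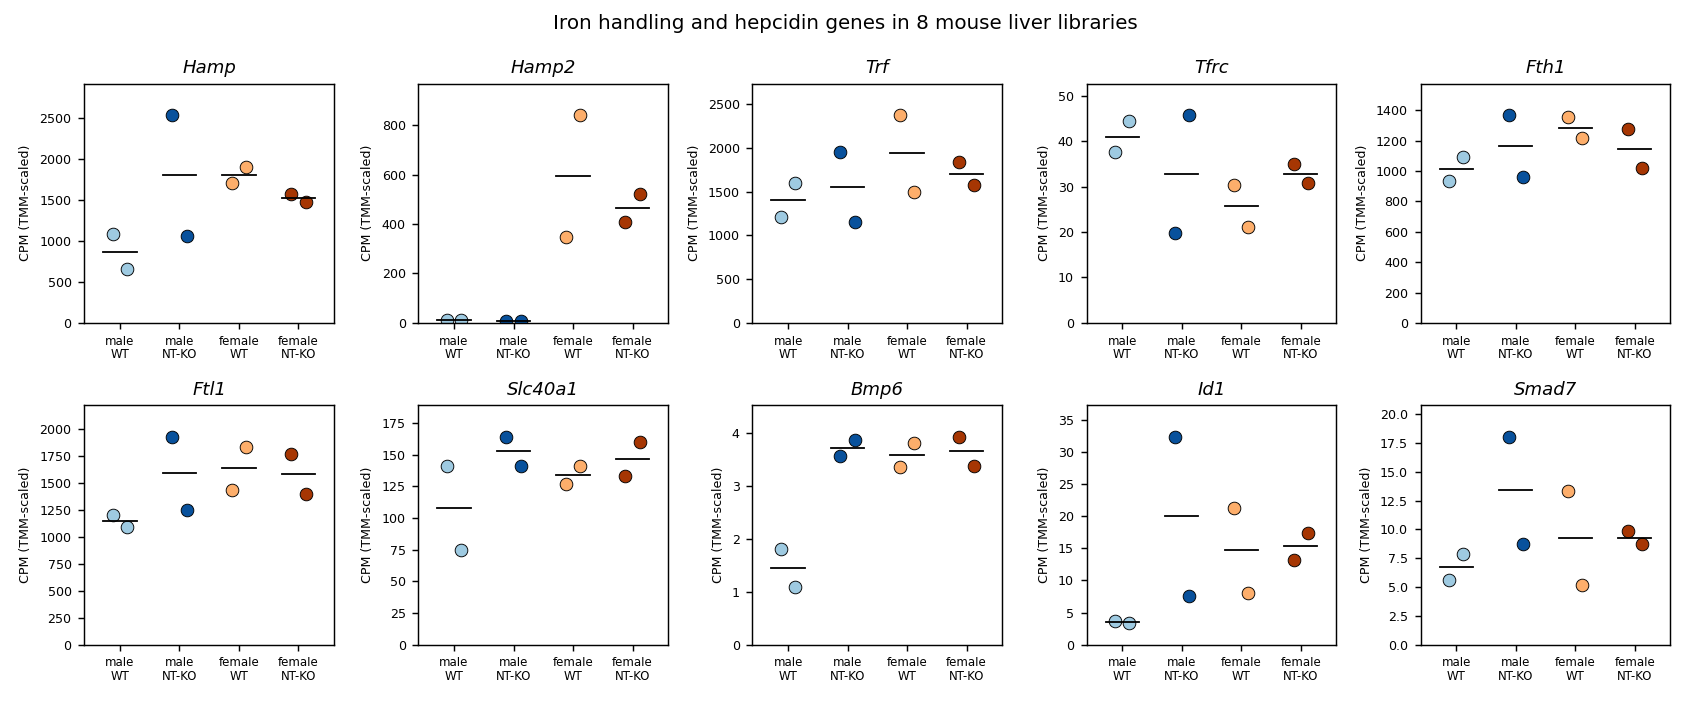
CPM of the 10 member genes in each of the 8 libraries, 1 panel per gene with a y axis from 0; points are libraries (replicate 1 left, replicate 2 right) and bars are group means. Hamp2 is at most 10.9 CPM in the 4 male libraries and at least 348 CPM in the 4 female ones, and Bmp6 and Id1 are lowest in male WT.

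The hepcidin genes themselves were compared between NT-KO and WT first. Hamp stood at 1086 and 656 CPM in the WT males, 2539.6 and 1062 in the NT-KO males, 1709.8 and 1906 in the WT females and 1573 and 1474 in the NT-KO females. Male WT and male NT-KO overlapped, since NT-KO library 2 was below WT library 1, and the male NT-KO mean of 1801 ± 1045 CPM against 871 ± 304 in male WT (SD, n = 2) rests on NT-KO library 1. At 1.05 on the log2 scale (SE 0.400), the male change did not pass the test (edgeR quasi-likelihood, FDR 0.385). It was 0.29 without male NT-KO library 1. In females both NT-KO libraries were below both WT libraries, with a log2 fold change of -0.25 (SE 0.396, FDR 1 by edgeR). The difference between the female and the male change, -1.29 (SE 0.562), was not called either (FDR 0.688 by edgeR), and it was -0.53 without male NT-KO 1.

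Hamp2 was at 10.9 and 9.68 CPM in the WT males, 8.77 and 5.76 in the NT-KO males, 348 and 841 in the WT females and 407 and 522 in the NT-KO females. In males the 2 genotypes did not overlap and NT-KO was lower, with a log2 fold change of -0.50 (SE 0.399), and in females they overlapped, at -0.36 (SE 0.389). Neither difference passed (edgeR quasi-likelihood, FDR 0.676 in males and FDR 1 in females). The male value was -0.84 without male NT-KO 1 and -0.23 without male NT-KO 2, and the female value -0.86 without female WT 1 and 0.42 without female WT 2. By this test neither hepcidin gene was called between genotypes in either sex.

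Bmp6, the endothelial ligand that drives hepcidin, had the smallest p of the members in males. It was at 1.80 and 1.09 CPM in the WT males and at 3.56 and 3.87 CPM in the NT-KO males, from 102, 46, 175 and 203 counts. The groups did not overlap, and the log2 fold change was 1.35 (SE 0.280), the rank 90 p of 13117 genes, which did not pass over all genes (edgeR quasi-likelihood, FDR 0.178). It remained 1.04 when male WT 2 was left out. The female libraries held 3.37 and 3.80 CPM if WT and 3.93 and 3.38 CPM if NT-KO, which overlapped, and their log2 fold change was 0.03 (SE 0.268, FDR 1 by edgeR). Female livers of both genotypes and male NT-KO livers were thus at 3.37 to 3.93 CPM, and male WT livers stood below them.

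The target genes Id1 and Smad7 read out BMP-SMAD signalling: Id1 encodes a helix-loop-helix protein that blocks DNA binding by its partners, and Smad7 an inhibitor that feeds back on the receptors. Id1 was at 3.62 and 3.37 CPM in the WT males, 32.4 and 7.62 in the NT-KO males, 21.3 and 8.05 in the WT females and 13.2 and 17.4 in the NT-KO females. Both male NT-KO libraries were above both male WT libraries, but they differed from each other by 4.25-fold. The log2 fold change in males was 2.51 (SE 0.671, FDR 0.249 by edgeR) and was 1.12 without male NT-KO 1. In females the genotypes overlapped, at 0.06 (SE 0.624, FDR 1 by edgeR).

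Smad7 was at 5.58 and 7.83 CPM in the WT males, 18.1 and 8.71 in the NT-KO males, 13.4 and 5.17 in the WT females and 9.89 and 8.70 in the NT-KO females. Its male genotypes did not overlap, with a log2 fold change of 1.00 (SE 0.470, FDR 0.465 by edgeR). Without male NT-KO 1 that value was 0.38. The female value was 0.01 (SE 0.464, FDR 1 by edgeR). The female changes minus the male changes were -1.33 (SE 0.386) for Bmp6, -2.45 (SE 0.906) for Id1 and -0.99 (SE 0.659) for Smad7, and none passed the test of that difference (edgeR quasi-likelihood, FDR 0.573, 0.657 and 0.767). Without male NT-KO 1 the Id1 value was -1.06 and the Smad7 value -0.37. The Smad7 value was also -0.15 without female WT 1 and -1.53 without female WT 2.

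The genes that move and store iron gave no call between genotypes by edgeR either. Trf, the plasma carrier of iron, was at 1213 and 1598 CPM in the WT males, 1955 and 1148 in the NT-KO males, 2376 and 1494 in the WT females and 1836 and 1570.2 in the NT-KO females. Tfrc, the receptor that takes up iron-loaded transferrin, was at 37.5 and 44.4 CPM in the WT males, 19.7 and 45.8 in the NT-KO males, 30.3 and 21.0 in the WT females and 34.9 and 30.8 in the NT-KO females. Slc40a1, the exporter, was at 141 and 74.5 CPM in the WT males, 164 and 141 in the NT-KO males, 127 and 141 in the WT females and 133 and 159.8 in the NT-KO females. In male NT-KO the library with the most Hamp had the least Tfrc of all 8. In male WT it was library 2 that had the least Slc40a1 of all 8.

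The ferritin heavy chain gene Fth1 was at 937 and 1091 CPM in the WT males, 1371 and 960 in the NT-KO males, 1353 and 1219 in the WT females and 1276 and 1021 in the NT-KO females. The light chain gene Ftl1 was at 1198 and 1087 CPM in the WT males, 1928 and 1248 in the NT-KO males, 1432 and 1832 in the WT females and 1771 and 1397 in the NT-KO females. The ratio of Ftl1 to Fth1 per length lay between 2.58 and 3.89 over the 8 libraries. That ratio rests on union exon lengths of 1340 bases for Ftl1 and 3469 for Fth1. In CPM, as listed above, the 2 genes lay much closer. Ferritin chains assemble into a shell that holds iron, and the liver is known for a high light chain share, which this ratio does not test. Of these 5 genes, Ftl1 in males (log2 fold change 0.48, SE 0.263, FDR 0.531) and Tfrc in females (0.36, SE 0.357, FDR 1) had genotypes that did not overlap, both higher in NT-KO, and neither passed the edgeR quasi-likelihood test. The male Ftl1 value was 0.13 without male NT-KO 1 and 0.75 without male NT-KO 2, and the female Tfrc value 0.11 without female WT 2 and 0.64 without female WT 1. The others lay between -0.32 for Tfrc and 0.50 for Slc40a1 in males and between -0.18 for Trf and 0.13 for Slc40a1 in females. In males Slc40a1 was at 0.11 without male WT 2 and at 1.03 without male WT 1, and Tfrc at 0.16 without male NT-KO 1.

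Counted over all 10 members, none passed an FDR of 0.05 between NT-KO and WT in males, in females or in the difference between the sexes (edgeR quasi-likelihood test adjusted over all 13117 genes). Over all genes the same rule called 0.0152% in males, 0.00762% in females and 0.0152% in the difference, so a call was rare for any gene. At an unadjusted p under 0.05 there were 3 members in males (Hamp, Bmp6 and Id1) against 11.5% of all genes, none in females against 1.55%, and the same 3 in the difference against 7.2%. Genotypes did not overlap at 5 members in males against 38.9% of all genes, and at 2 members in females (Hamp and Tfrc) against 26.4%. The median log2 fold change of the 10 members was 0.49 in males, with 8 above 0, and -0.02 in females, beside 0.01 and 0.0012 over all tested genes. The male median was 0.22 without male NT-KO 1 and 0.38 without male WT 2. By other tools Bmp6 was called in males, at an FDR of 0.00620 by the edgeR likelihood ratio test and 0.00607 by DESeq2, and Id1 at 0.0138 by the likelihood ratio test. Both tools called far more of all genes than the quasi-likelihood test did, as counted in the last section. The study itself used the glmFit fit of edgeR, on which the likelihood ratio test rests.

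**Figure D2:**
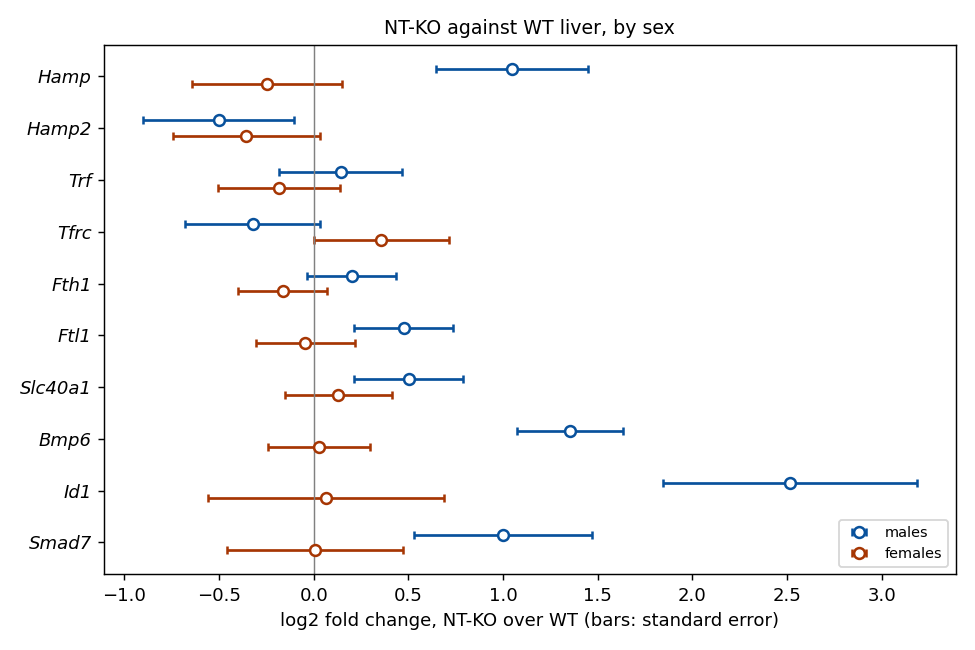
log2 fold change of NT-KO over WT for the 10 members, males and females separately; points are edgeR estimates and bars their standard errors, and no point is filled because no member reached an FDR of 0.05. Male values run from -0.50 for Hamp2 to 2.51 for Id1 and female values from -0.36 to 0.36.

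A list of 12 BMP-SMAD target genes, which holds the members Hamp, Id1 and Smad7, gave the wider view of this pathway. In males 10 of 12 were above 0 between NT-KO and WT with a median log2 fold change of 1.00, 5 had an unadjusted p under 0.05 (against 11.5% of all genes), and none was called at an FDR of 0.05 by the edgeR quasi-likelihood test, while the likelihood ratio test called Id1 as given above. In females the median was 0.04 with 7 of 12 above 0. Smad9, a SMAD that BMP signals induce, was at 10.4 and 5.47 CPM in the WT males and 28.5 and 12.3 in the NT-KO males. Id4, another inhibitor of helix-loop-helix proteins, was at 0.406 and 0.236 CPM in the WT males and 1.12 and 0.991 in the NT-KO males. The growth factor gene Pdgfb was at 0.441 and 0.425 CPM in the WT males and 1.12 and 0.877 in the NT-KO males. At these 3 genes the male genotypes did not overlap, with log2 fold changes of 1.36, 1.69 and 1.20 that were not called (FDR 0.297, 0.228 and 0.246 by edgeR). Id4 and Pdgfb were under 1 CPM in both male WT libraries and entered the test only through libraries of groups where they were higher, so their place in the counts of this list depends on that.

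The targets differed between libraries of a group. Male NT-KO 1 was the highest of the 8 libraries at 9 of the 12 targets, and male WT 2 the lowest at 7 and the highest at 2. Without male NT-KO 1 the male median was 0.20 with 9 of 12 above 0, and without male WT 2 it was 0.85 with 10 of 12 above 0. Atoh8, a transcription factor gene that BMP signals raise, was at 6.33 and 12.9 CPM in the WT males and 30.8 and 7.80 in the NT-KO males. Id2 and Id3 lay below 0 in males, with log2 fold changes of -0.29 and -0.34 (FDR 0.527 and 0.817 by edgeR).

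**Figure D3:**
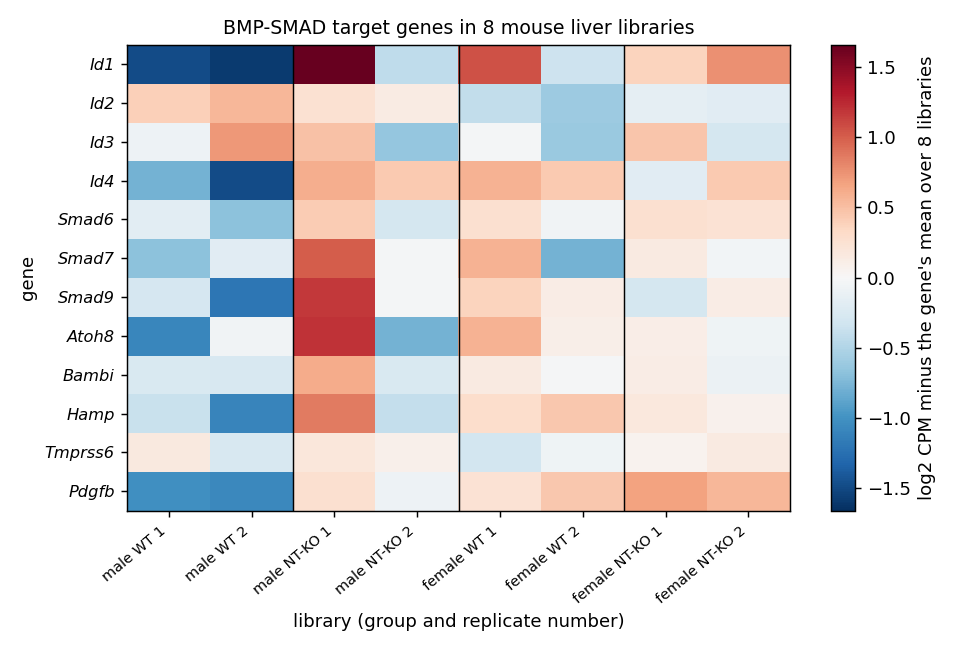
Heat map of 12 BMP-SMAD target genes (rows) in the 8 libraries (columns), as log2 CPM minus each gene's mean over the 8 libraries. Male NT-KO 1 is the highest library at 9 of 12 genes, and male WT 2 is the lowest at 7.

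A list of 20 genes held BMP ligands, receptors, co-receptors and SMADs, with inhibitors such as Fst and other regulators such as Tmprss6 and Fkbp1a. Most act upstream of these targets, but Smad9 and Tmprss6 are on both lists. Of the 20 genes, 18 were tested (Erfe and Nog were too low). None was called between genotypes by the edgeR quasi-likelihood test, and Bmp6, which is on this list, was called in males by the other tools as given above. Their median log2 fold change was -0.06 in males and 0.02 in females. Bmp2, the other endothelial ligand, was at 12.4 and 7.08 CPM in the WT males, 12.8 and 12.1 in the NT-KO males, 17.7 and 15.6 in the WT females and 12.9 and 13.9 in the NT-KO females. The most abundant members of the list, the iron sensor Tfr2 (339 to 419 CPM) and the protease Tmprss6 (301 to 422 CPM), which cuts hemojuvelin from the cell surface, had log2 fold changes between -0.06 and 0.29 in either sex. Stab1, Stab2, Lyve1, Clec4g and 6 other markers of sinusoidal endothelial cells, where Bmp6 is made, summed to 260 and 177 CPM in the WT males, 296 and 255 in the NT-KO males, 344 and 340 in the WT females and 298 and 325 in the NT-KO females. None of these markers was at 0, and the most abundant was Clec4g in 6 libraries and Fcgr2b in the 2 male NT-KO libraries. In males 9 of 10 were above 0 between genotypes with a median of 0.29, and their part in the Bmp6 values was not tested. That median leans on male WT 2. Relative to its mean over the 8 libraries, the mean log2 CPM of these markers was -0.59 in male WT 2. In male WT 1 it was -0.083, between the -0.019 and -0.16 of male NT-KO 1 and 2. In bulk liver, fewer cells of a type and less RNA per cell cannot be told apart.

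The inflammatory arm of hepcidin control lay below 0 in males. Of its 26 genes, 23 were below 0 between male NT-KO and male WT with a median log2 fold change of -0.50, and none was called by edgeR. That median was 0.03 with 15 of 26 above 0 when male WT 2, the library rich in acute phase RNA, was left out. In females the median was 0.01. Hepatocyte markers summed to 84569 to 118480 CPM and stellate cell markers to 245 to 329 CPM over all libraries. Neutrophil markers summed to 3.12 and 10.1 CPM in male WT and to between 3.09 and 6.86 CPM in the others, S100a9 having the highest mean over the 8 libraries and Csf3r the highest level in 5 of them, with up to 4 of the 10 genes at 0 counts in a library.

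By the edgeR quasi-likelihood test, members were called in the comparisons of the sexes and in no comparison of genotypes. Between female WT and male WT, 2 of the 10 passed (Hamp2 and Bmp6, both higher in females), where 6.44% of all genes were called. Between female NT-KO and male NT-KO, 1 passed (Hamp2), where 1.86% were called. Unadjusted p values under 0.05 were found at 4 members in WT against 27% of all genes and at 1 in NT-KO against 9.81%. The sexes did not overlap at 7 members in WT against 62% of all genes and at 1 in NT-KO against 34.3%. The median over the members was 0.49 in WT, with 9 above 0, and -0.02 in NT-KO. The NT-KO median depends on male NT-KO 1. Without it Hamp (0.52), Fth1 (0.26), Ftl1 (0.34), Slc40a1 (0.05), Id1 (1.01) and Smad7 (0.09) turned above 0 between the NT-KO sexes. Tfrc then turned below 0 (-0.48), and Trf was at 0.57.

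Hamp2 was 57.8-fold higher in female than in male WT livers and 63.9-fold higher in female than in male NT-KO livers. On the log2 scale these differences were 5.85 (SE 0.481, FDR 0.000635) and 6.00 (SE 0.485, FDR 0.000777) by the edgeR quasi-likelihood test, and every one of the 18 alternatives of processing kept both calls, with a highest FDR of 0.00872 in WT and 0.00687 in NT-KO. The male libraries held 302 to 617 reads of Hamp2 and the female ones 19010 to 57270. The 2 female WT libraries differed by 2.42-fold. Per length, Hamp exceeded Hamp2 142-fold and 96.4-fold in the WT males and 412-fold and 262-fold in the NT-KO males, but 6.99-fold and 3.22-fold in the WT females and 5.495-fold and 4.02-fold in the NT-KO females. Hamp2 thus made up 0.242% to 1.03% of all hepcidin RNA per length in males and 12.5% to 23.7% in females. These ratios and shares rest on union exon lengths of 410 bases for Hamp and 583 for Hamp2. One transcript of each gene aligned over 420 positions, and a shorter length for Hamp2 would raise its share.

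Hamp itself was higher in both female WT libraries than in both male WT libraries, at a log2 difference of 1.05 (SE 0.400) that was not called (edgeR quasi-likelihood, FDR 0.140). DESeq2, which called many more of all genes here (last section), called it at an FDR of 0.0254. It was 0.73 without male WT 2. In NT-KO livers the sexes overlapped at -0.24 (SE 0.396, FDR 0.935 by edgeR). That value was 0.52 without male NT-KO 1 and -0.73 without male NT-KO 2. Reads that fit both hepcidin genes could move between them in the counting, as the shared 16.6% of Hamp stretches allows.

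Bmp6 was 2.47-fold higher in female WT than in male WT, a log2 difference of 1.30 (SE 0.279, FDR 0.0362 by edgeR). The call was close to the threshold. Without male WT 2 the difference was 0.99 at an FDR of 0.134, without female WT 1 it was 1.39 at an FDR of 0.126, and with only the 4 WT libraries in the fit the FDR was 0.0691, all by edgeR. In NT-KO livers Bmp6 differed between the sexes by -0.02 (SE 0.268, FDR 0.992 by edgeR). That the sex difference was smaller in NT-KO was not shown, since the test of this change is the same contrast as above (FDR 0.573 by edgeR). Endothelial markers were above 0 at 10 of 10 between the WT sexes with a median of 0.61, none called at an FDR of 0.05, and at 8 of 10 in NT-KO with a median of 0.25. The size of the WT difference depends on male WT 2. The mean log2 CPM of the markers, relative to its mean over the 8 libraries, was -0.59 there. It was -0.083 in male WT 1, and 0.28 and 0.31 in the WT females. Their part in the Bmp6 difference was not tested.

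Id1 was also higher in both female WT libraries than in both male ones, by 2.06 on the log2 scale (SE 0.663, FDR 0.0956 by edgeR), and overlapped in NT-KO at -0.39 (SE 0.624, FDR 0.933 by edgeR). The WT difference was called by edgeR without male NT-KO 1 (FDR 0.0360) and without male NT-KO 2 (FDR 0.0354), and it was 1.20 at an FDR of 0.409 without female WT 1. With all 8 libraries the likelihood ratio test of edgeR, which called many more of all genes here (last section), called it at an FDR of 0.0184. The NT-KO value was 1.01 without male NT-KO 1. Fth1 (0.34, SE 0.235) and Ftl1 (0.51, SE 0.263) were higher and Tfrc (-0.67, SE 0.358) lower in female WT with no overlap, at edgeR FDRs of 0.381, 0.244 and 0.259. In NT-KO these 3 genes lay between -0.02 and 0.003. Without male NT-KO 1 they were at 0.26 for Fth1, 0.34 for Ftl1 and -0.48 for Tfrc. Without male NT-KO 2 they were at -0.25, -0.28 and 0.74 in that order. Trf (0.46), Slc40a1 (0.31) and Smad7 (0.47) overlapped between the WT sexes, at edgeR FDRs of 0.393, 0.518 and 0.556. Without male WT 2 the Slc40a1 value was -0.08 and the Smad7 value 0.73. Between the fits without female WT 1 and without female WT 2, Smad7 went from -0.37 to 1.00, Trf from 0.09 to 0.76, Ftl1 from 0.68 to 0.33 and Tfrc from -0.96 to -0.43. Kupffer cells, the macrophages that recycle iron from red cells and export it through ferroportin, were read from 10 markers that summed to 205 and 313 CPM in the WT males, 343 and 264 in the NT-KO males, 400 and 402 in the WT females and 369 and 434 in the NT-KO females. None was at 0, and the most abundant was Clec4f in 6 libraries and Cd5l in male WT 2 and female NT-KO 2. They were above 0 at 10 of 10 between the sexes in both genotypes, with medians of 0.66 in WT and 0.39 in NT-KO and no call by edgeR, and their part in the Slc40a1 values was not tested. The size of the WT difference depends on male WT 1. The mean log2 CPM of the markers, relative to its mean over the 8 libraries, was -0.76 there. It was -0.065 in male WT 2, and 0.31 and 0.25 in the WT females.

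**Figure D4:**
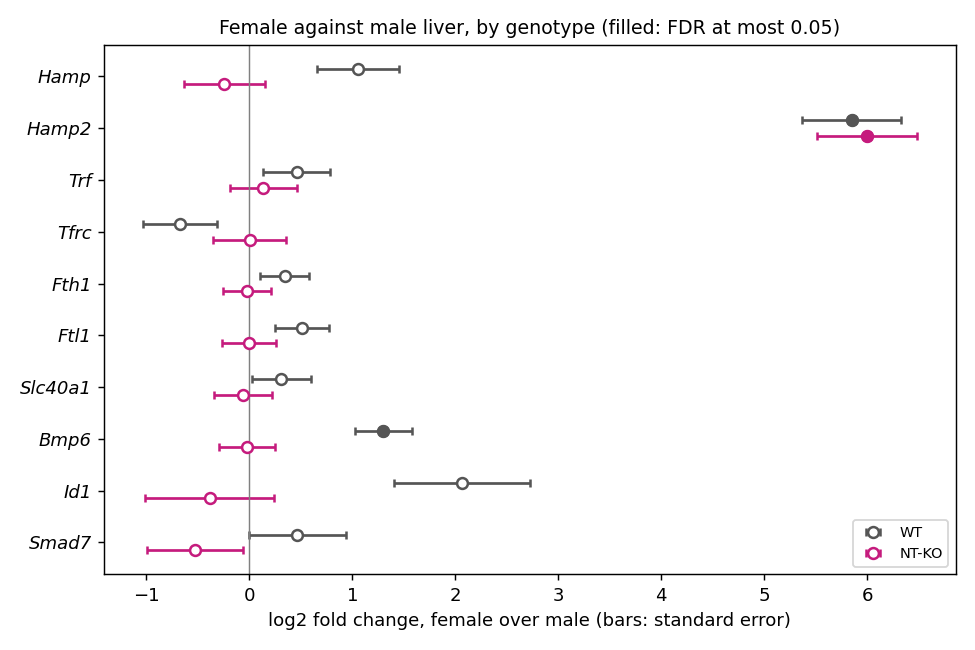
log2 fold change of female over male for the 10 members, in WT and in NT-KO livers; points are edgeR estimates, bars their standard errors, and filled points reached an FDR of 0.05. Hamp2 lies at 5.85 and 6.00, and Bmp6 is filled only in WT, at 1.30.

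Among the other iron genes the same comparison called several that were lower in females. Of 20 genes for iron uptake, transport and export, 18 were tested, and 3 were lower in female WT than in male WT with none higher, where 3.12% of all genes were called lower and 3.32% higher. Scara5 (chr14:65666403-65764826), a receptor that takes up ferritin, was at 52.9 and 45.4 CPM in the WT males, 16.7 and 15.6 in the NT-KO males, 0.933 and 0.0881 in the WT females and 0.123 and 0.275 in the NT-KO females. Its log2 difference was -6.65 (SE 0.731, FDR 0.00238 by edgeR) between the WT sexes and -6.30 (SE 0.767, FDR 0.00442) between the NT-KO sexes. Female WT 2 and female NT-KO 1 held only 6 and 7 reads of it. All 4 female libraries were under 1 CPM, so Scara5 entered the test through the male libraries alone, and its place in the count above depends on that. Male NT-KO was below male WT with no overlap at -1.60, which was not called (FDR 0.344 by edgeR).

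Slc11a2, the divalent metal transporter DMT1, was at 32.3 and 37.3 CPM in the WT males, 23.4 and 25.9 in the NT-KO males, 15.1 and 17.4 in the WT females and 19.1 and 18.4 in the NT-KO females. Steap4, a ferrireductase of the STEAP family, was at 276 and 225 CPM in the WT males, 78.2 and 126 in the NT-KO males, 50.7 and 81.5 in the WT females and 78.2 and 77.4 in the NT-KO females. Their differences between the WT sexes were -1.10 (SE 0.158, FDR 0.00944) and -1.92 (SE 0.297, FDR 0.0121), and those between the NT-KO sexes were -0.40 and -0.39, not called (edgeR FDR 0.438 and 0.802). At both genes male NT-KO lay between male WT and the female WT libraries, apart from female WT 2, whose 81.5 CPM of Steap4 exceeded the 78.2 of male NT-KO 1. Cp, the plasma ferroxidase ceruloplasmin and the most abundant gene of the list after Trf, was at 898 to 1028 CPM in the male libraries and 687 to 814 in the female ones, which was not called (-0.39 in WT, FDR 0.212 by edgeR).

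Heme synthesis, which consumes iron, held 2 genes that were lower in female WT and none that was higher, of 13 tested, against the same 3.12% of all genes. Alas2 (chrX:150547375-150570638), the erythroid form of the first enzyme of the pathway, was at 167 and 93.5 CPM in the WT males, 90.3 and 127 in the NT-KO males, 8.63 and 15.1 in the WT females and 13.8 and 13.5 in the NT-KO females. It was lower in females by 10.98-fold in WT (log2 -3.46, SE 0.371, FDR 0.00207) and 7.95-fold in NT-KO (-2.99, SE 0.363, FDR 0.00442) by edgeR. Abcb10, a mitochondrial transporter tied to heme synthesis, was at 41.4 and 31.8 CPM in the WT males and 14.5 and 17.4 in the WT females (-1.20, SE 0.203, FDR 0.0176 by edgeR). Its NT-KO means were 33.3 ± 6.09 CPM in males and 20.8 ± 0.966 CPM in females (SD, n = 2). Alas1, the form of that enzyme in most cells and the most abundant gene of the list, was higher in females with no overlap, at 0.72 in WT and 0.99 in NT-KO, not called (FDR 0.227 and 0.354 by edgeR). The mRNA of Alas2 carries an iron responsive element in its 5′ UTR, at chrX:150547459-150547485.
Alas2: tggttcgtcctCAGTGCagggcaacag

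Red cell RNA varied between these libraries. Of 10 erythroid markers, 9 were found and 5 tested, and their summed level was 948 and 446 CPM in the WT males, 373 and 371 in the NT-KO males, 185 and 181 in the WT females and 321 and 171 in the NT-KO females, with the hemoglobin gene Hbb-bs the most abundant. Of the 9, 1 was at 0 counts in male WT 1, male NT-KO 1 and female WT 1. Of the 5 tested, 4 were called lower in female WT than in male WT, where 3.12% of all genes were. They were Alas2 and the hemoglobin genes Hbb-bs (-1.79, SE 0.378), Hbb-bt (-2.00) and Hba-a1 (-1.98), at edgeR FDRs of 0.0350, 0.0305 and 0.0489 for the hemoglobin genes. The 2 male WT libraries differed by 2.07-fold at Hbb-bs, 2.04-fold at Hbb-bt and 2.56-fold at Hba-a1. Hbb-bs was at 391 and 189 CPM in the WT males and 81.4 and 86.6 in the WT females. Its difference was thus much smaller against male WT 2. Hba-a2 was at -0.67 and was not called (FDR 0.627 by edgeR). Between the NT-KO sexes Hbb-bs differed by -0.28 (SE 0.367, FDR 0.912 by edgeR) and Alas2 by -2.99, as given above. The part of red cell RNA in the Alas2 values was not tested.

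Within the BMP-SMAD targets, 3 genes were called between the WT sexes, where 6.44% of all genes were: Pdgfb (1.45, SE 0.314, FDR 0.0369) and Id4 (1.68, SE 0.404, FDR 0.0490) were higher in females, and Id2 (-0.98, SE 0.160, FDR 0.0155 by edgeR) was lower. Pdgfb was at 1.10 and 1.28 CPM and Id4 at 1.10 and 0.999 CPM in female WT, from 60 to 87 reads. Both entered the test only through libraries of other groups than male WT, as said above. Id2 was at 150 and 167 CPM in the WT males and 85.8 and 75.2 in the WT females. None of the 12 was called between the NT-KO sexes, and the medians were 0.68 in WT and -0.30 in NT-KO. The NT-KO median leans on male NT-KO 1, the highest of the 8 libraries at 9 of the 12 targets. Without that library the NT-KO values of Hamp, Id1 and Smad7 turned above 0, to 0.52, 1.01 and 0.09. None of the 3 calls held without male WT 2, a fit that leaves 1 library in that group. Male WT 1 still lay on the same side of both female WT libraries at these genes. As log2 CPM minus each gene's mean over the 8 libraries, male WT 1 and 2 were at -1.01 and -1.07 for Pdgfb. They were at -0.79 and -1.49 for Id4 and at 0.40 and 0.56 for Id2.

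The inflammatory arm held 3 genes that were lower in female WT than in male WT, of 26 tested, beside 3.12% of all genes. Stat3, the transcription factor by which interleukin 6 raises Hamp, was at 86.9 and 114 CPM in the WT males, 71.0 and 80.9 in the NT-KO males, 50.1 and 53.3 in the WT females and 59.4 and 57.8 in the NT-KO females (-0.96 in WT, SE 0.174, FDR 0.0229 by edgeR). Socs3, the feedback inhibitor that STAT3 induces, was at 22.1 and 18.4 CPM in the WT males, 6.94 and 4.10 in the NT-KO males, 7.15 and 2.70 in the WT females and 5.99 and 3.38 in the NT-KO females (-2.04 in WT, SE 0.478, FDR 0.0460 by edgeR). Saa4, a constitutive serum amyloid gene, was at 537 and 1123 CPM in male WT and between 196 and 288 in the other 6 libraries (-1.93 in WT, SE 0.348, FDR 0.0220 by edgeR). These calls did not hold without male WT 2, a fit that leaves 1 library in that group. The levels in male WT 1 alone were higher than in male WT 2 for Socs3 (22.1 against 18.4 CPM). They were lower for Stat3 (86.9 against 114) and Saa4 (537 against 1123). None of the 26 was called between the NT-KO sexes, where the median was -0.10 against -0.64 in WT. The WT median leans on male WT 2. Relative to its mean over the 8 libraries, the mean log2 CPM of the 26 genes was 1.04 there. It was -0.087 in male WT 1, and -0.095 and -0.40 in the WT females. Both male WT libraries were above all 6 others at Stat3, Socs3 and Saa4.

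**Figure D5:**
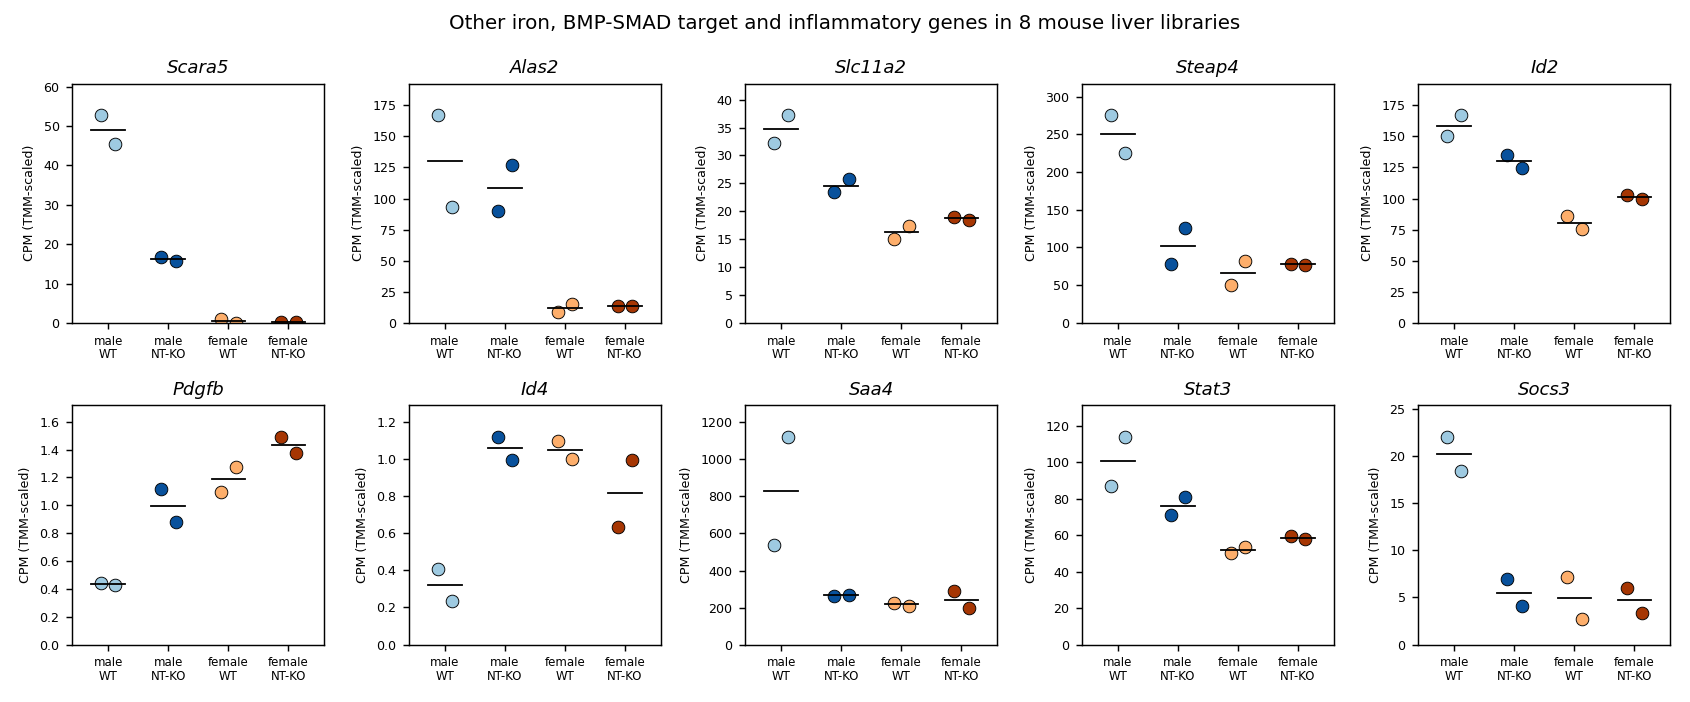
CPM of 10 other iron and hepcidin control genes that were called between the WT sexes, in each of the 8 libraries, with y axes from 0; points are libraries (replicate 1 left, replicate 2 right) and bars are group means. Scara5 and Alas2 are low in all 4 female libraries, while Saa4, Stat3 and Socs3 are highest in the 2 male WT libraries.

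The remaining lists held no call in any of the 5 comparisons by the edgeR quasi-likelihood test. They were 10 tested genes of iron storage, iron regulatory proteins and iron chaperones (Ftmt was too low), 13 of heme uptake, breakdown and export, and 19 of iron-sulfur cluster assembly (Fdx1l was too low). At an unadjusted p under 0.05 the counts between the WT sexes were 1, 6 and 3, against 27% of all genes. Hemopexin (Hpx), the plasma carrier of heme, had a mean of 4549 CPM over the 8 libraries and reached 9429 CPM in male WT 2. The mitochondrial chaperone Hspa9 averaged 386 CPM and the ferredoxin Fdx1 90.9 CPM, and their differences between groups lay between -0.51 and 0.23. In the heme synthesis list 12 of 13 genes were above 0 between female NT-KO and female WT with a median of 0.10, led by Alad (0.98, SE 0.323, FDR 1 by edgeR).

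Profiles like those of 4 members were sought over the 8 libraries, as the smallest root mean square difference of log2 CPM centred on each gene's mean. Nearest to Hamp were Exoc3l at 0.138, Spred3 at 0.146 and Gm44243 at 0.169, where the median over all tested genes was 0.611. For Hamp2 they were Zbed4-ps2 at 0.548, Gm29920 at 0.574 and Cyp2a4 at 0.579 (median 2.97). In the male libraries Zbed4-ps2 was at 0 CPM and Gm29920 at 0.04 CPM or less. Both entered the test through the female libraries alone. Their distances, and so their places before Cyp2a4, depend on the count of 2 added before taking logs. Cyp2a4, a steroid hydroxylase gene with more transcript in females, was at 23.1 to 39.9 CPM in the male libraries and 1176 to 1688 CPM in the female ones. For Id1 they were Arrdc2 at 0.416, Gm15690 at 0.440 and Slc6a16 at 0.480 (median 1.12), and for Tfrc Kif11 at 0.148, Kpna2 at 0.165 and Fam47e at 0.167 (median 0.490). Arrdc2 was at 44.0 CPM in male NT-KO 1 and at 7.04 and 9.72 CPM in male WT, and Kif11, a mitotic kinesin gene, was lowest in male NT-KO 1 at 0.59 CPM, as Tfrc was.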

How the data were processed

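Livers were flash frozen, RNA was extracted with Trizol and libraries were made with the Illumina TruSeq RNA kit. Per the labels and the study's methods, cutadapt trimmed the reads, STAR 2.6.1a aligned them to GRCm38, and featureCounts assigned them to Ensembl genes. The deposited values are the authors' raw counts, not normalized. The strand setting is not given in the sources used here. Of 49671 identifiers, 49412 were matched to GENCODE M21 on GRCm38 and 259 were not, and 19172 had no count. After rRNA, miRNA and mitochondrial genes were set aside, the 13117 that reached 1 CPM in 2 or more libraries were tested with the quasi-likelihood test of edgeR 4.0.16 in R 4.3.3, in 1 fit of 4 group means over all 8 libraries with TMM factors of 0.926 to 1.06. P-values were adjusted by Benjamini-Hochberg over all tested genes, and a call was an FDR of at most 0.05. SE is the log2 fold change divided by the root of F. An exact permutation test of 2 against 2 libraries cannot go below p = 0.333. Because 3 counts correspond to 0.0441 to 0.0708 CPM, lower values are not distinguishable from none at this depth, and this covers counting error only. RPKM used the union of annotated exons. Unless said otherwise, most abundant means the highest mean CPM over the 8 libraries, without regard to length. The fit was tested on simulated data.

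The members and lists were chosen with earlier results of these data known. Of 188 list symbols 187 were found (Ahsp was not). The text names the members, the called genes with the 3 smallest p and the 2 most abundant genes of each list, Lbr, Xist, leading markers and the 3 nearest profiles of 4 members; Smad9, Bmp2, Atoh8, Id3, Saa1, Hba-a1 and Hba-a2 were chosen after their values were seen. Alternatives were the likelihood ratio test, DESeq2 1.42.0, other scaling and filters, a replicate block, the 4 compared libraries alone, stricter thresholds and leaving out each library. Replicates differed by far more than counting noise, so none was merged.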

Additional observations from a re-analysis of the deposited data

How the results depend on the processing

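Of the 920 recomputed log2 fold changes, 854 kept their direction and their side of the threshold. The counts of called members moved in 3 comparisons. Between male NT-KO and male WT the count of 0 became 2 with the likelihood ratio test (Bmp6 and Id1), 1 with DESeq2 (Bmp6) and 4 with no filter beyond 1 count (Hamp, Bmp6, Id1 and Smad7). In the difference between the sexes it became 2 with no such filter (Hamp and Id1). Between the WT sexes the count of 2 became 3 with the likelihood ratio test (Id1 added) and 3 with DESeq2 (Hamp added), 5 with no such filter, 1 with only the 4 libraries compared, 1 at an FDR of at most 0.01, and 1 to 3 when a library was left out. Hamp2 was called in every one of these, and the call of Bmp6 was lost without male WT 2, without either female WT library and without either female NT-KO library; over all fits without a library its log2 difference was 0.99 to 1.71, with an edgeR FDR of up to 0.174. In these fits a library left alone in its group was assumed to vary like the other groups. Over all genes, the count between male genotypes was 2, and 254, 308 and 917 with the likelihood ratio test, DESeq2 and no filter, 6 with filterByExpr or a robust fit, and 2 to 21 without a library, the highest without male WT 1. Between female genotypes it was 1, and 11, 5 and 194 with those first 3 settings, and 0 at an FDR of 0.01, with only the 4 libraries compared and without any library. For the difference it was 2, and 46, 62 and 552, and 1 to 7 without a library. Between the WT sexes it was 845, and 1707, 1802 and 2664, 1316 scaled by library size only, 159 at an FDR of 0.01, and 181 to 1148 without a library, the lowest without female WT 2. Between the NT-KO sexes it was 244, and 467, 480 and 976, 121 at an FDR of 0.01, and 112 to 236 without a library. Scaling by library size only moved the median of all genes to 0.18 between the WT sexes and to -0.10 in the difference, and turned the sign of Smad7 between female genotypes (-0.0151) and, between the NT-KO sexes, of Fth1 (0.0660), Ftl1 (0.0829), Slc40a1 (0.0224) and Bmp6 (0.0598). Leaving out a library turned the sign of values that were not called. Between male genotypes Trf ranged from -0.29 to 0.47, Tfrc from -1.06 to 0.16 and Fth1 from -0.0791 to 0.43. Between female genotypes Hamp2 ranged from -0.86 to 0.42, Trf from -0.48 to 0.19, Ftl1 from -0.23 to 0.14, Slc40a1 from -0.00698 to 0.25, Bmp6 from -0.0864 to 0.13, Id1 from -0.48 to 0.93 and Smad7 from -0.53 to 0.85. In the difference Hamp2 ranged from -0.36 to 0.92, Trf from -0.65 to 0.11 and Slc40a1 from -0.89 to 0.0196. Between the WT sexes Slc40a1 ranged from -0.0805 to 0.84 and Smad7 from -0.37 to 1.00. Between the NT-KO sexes Hamp ranged from -0.73 to 0.52, Trf from -0.19 to 0.57, Tfrc from -0.48 to 0.74, Fth1 from -0.25 to 0.26, Ftl1 from -0.28 to 0.34, Slc40a1 from -0.20 to 0.0652, Bmp6 from -0.14 to 0.0822, Id1 from -1.08 to 1.01 and Smad7 from -0.95 to 0.0931. Of the list counts between the WT sexes, with genes of at least 5 CPM only, that of BMP-SMAD targets went from 3 to 1 and that of upstream BMP genes from 1 to 0. Without male WT 2 or without male NT-KO 1, both chosen after seeing the data, the list counts between the WT sexes ranged from 0 to 3 for BMP-SMAD targets, 0 to 1 for upstream BMP genes, 0 to 3 for the inflammatory arm and 0 to 1 for heme uptake, breakdown and export, and that of the inflammatory arm between the NT-KO sexes from 0 to 1. The replicate numbers share no stated origin, and deviations of same-numbered libraries correlated at -0.007 in males and 0.02 in females. With the replicate number as a block the counts over all genes were 3 between male genotypes, 0 between female genotypes and 2 in the difference, and no member was called. The cause of these changes was not tested. Among the called genes named, Scara5 in females came nearest to the depth limit of 3 counts, with 6 reads in female WT 2.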
